A study of Mus musculus with 8 samples.

Results

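The genes described here encode the vacuolar proton pump (symbols starting Atp6v or Atp6ap), the cathepsins with a single letter after Cts, and the lysosome membrane proteins Lamp1 and Lamp2. They were taken from the count table by symbol alone, which gave 46 of its 24454 gene rows: 26 pump genes, 18 cathepsins and 2 Lamp genes. RNA had been read from 8 pools of cells sorted out of mouse yolk sacs at E11.5 (mid-gestation). All pools came from C57BL/6 embryos heterozygous for miR144/451+/GFP, an allele that marks the locus of 2 erythroid microRNAs with green fluorescent protein (GFP), and the cells were neither cultured nor treated. Endothelial pools (replicates 1 to 3, 25 cells each) were VE-Cadherin positive and GFP negative, and erythroid pools (replicates 4 to 6, 25 cells each) were VE-Cadherin negative and GFP positive. Double positive pools (replicates 7 and 8, 24 cells each), labelled Endothelial-Erythroid, carried both signals. The labels do not say whether pools came from separate embryos, so p-values cover only how these pools vary, and that variation may be technical.

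Lysosomes are acid compartments in which the cell breaks down proteins, lipids and sugars taken up from outside or delivered by autophagy. The vacuolar proton pump acidifies them: its V1 sector sits on the cytosolic face and splits ATP, and its V0 sector lies in the membrane and carries protons across. Cathepsins are proteases that work at the low pH the pump makes, most of them with a cysteine in the active site, Ctsd and Ctse with aspartates, and Ctsa and Ctsg with a serine. Lamp1 and Lamp2 are heavily glycosylated proteins that line the inner face of the lysosome membrane. In the yolk sac, visceral endoderm takes up maternal protein and digests it in large lysosomes, macrophages are rich in lysosomes, and red cell precursors clear their organelles as they mature.

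Total counts ran from 3723128 to 7618444 per library, and since molecules were not tagged before amplification, intervals and floors take in only counting error. Levels are normalised read counts (CPM) on trimmed mean of M values (TMM) effective library sizes. Markers set the context for every comparison below. The 12 endothelial markers summed to 6981, 5065 and 6258 CPM in replicates 1 to 3, to at most 0.317 CPM in the erythroid libraries, and to 695 and 918 CPM in the double positive libraries. The 16 macrophage markers summed to 1701, 4421 and 1791 CPM in endothelial replicates 1 to 3, were all at 0 in the erythroid libraries, and summed to 304 and 297 CPM in replicates 7 and 8. Visceral endoderm markers, 14 in number, summed to 90795 and 90849.9 CPM in the double positive libraries against at most 45.9 CPM elsewhere. The 12 erythroid markers summed to 952825 to 1014535 CPM in erythroid, 79029 and 137878 CPM in double positive, and 59.1 to 79.6 CPM in endothelial libraries. Platelet markers, 10 in number, summed to 503, 938 and 568 CPM in endothelial replicates 1 to 3. They reached at most 43.3 CPM in erythroid and at most 60.0 CPM in double positive libraries, and 11 trophoblast markers at most 4.68 CPM in any library. A pool is a bulk sample, so fewer cells of a type and less RNA per cell cannot be told apart.

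Short stretches upstream of RefSeq starts of 4 members are shown because the transcription factors of the TFEB family, the known regulators of lysosome genes, bind the E-box CACGTG and, more strongly, its longer form TCACGTGA. RefSeq promoter windows (GRCm38.p6) matched 34 of the 46 symbols, and the 250 bases before each start were searched on both strands, every TCACGTGA also being a CACGTG. The capitals mark these motifs. Lamp1 lies at chr8:13159075-13159159 (plus strand), Atp6v0b at chr4:117887334-117887390 (minus), Atp6v1a at chr16:44139376-44139416 (minus) and Ctsl at chr13:64370743-64370770 (minus). The stretches of Atp6v1a and Ctsl lie inside the gene spans of GENCODE, which hold longer transcripts, and 11 bases of the Ctsl stretch are exonic there.
Lamp1: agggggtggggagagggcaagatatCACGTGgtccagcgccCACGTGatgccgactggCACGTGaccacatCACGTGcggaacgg
Atp6v0b: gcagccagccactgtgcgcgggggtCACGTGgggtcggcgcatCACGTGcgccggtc
Atp6v1a: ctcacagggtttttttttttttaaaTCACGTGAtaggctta
Ctsl: gcggcgttagaagcCACGTGctgatcta
Lamp1 held 4 E-boxes within 61 bases of its start, Atp6v0b 2 within 36 bases, Atp6v1a 1 within 131 bases and Ctsl 1 within 236 bases. In all, 7 of the 34 members held CACGTG (also Ctsa, Ctsd and Ctsf), in 18.4% of 38 member windows against 6.02% of 32851 windows of all genes. TCACGTGA was in 3 of them (Ctsa, Ctsd, Atp6v1a), 7.89% of member windows against 0.785% of all. AGATAA, a form of the site bound by GATA factors, was in 2 members (Ctsz, Atp6v0e), 5.26% of windows against 9.99% of all. These shares describe letters in the windows and say nothing of binding in these cells. The 4 genes whose stretches are printed did not follow 1 pattern across the sorts: between double positive and endothelial libraries, Ctsl and Atp6v0b differed past the test while Atp6v1a and Lamp1 did not, as given below.

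Of the 46 members, 30 passed the filter on low counts: 17 pump genes, 11 cathepsins and both Lamp genes. A further 10 had 0 counts in all 8 libraries: the pump genes Atp6ap1l, Atp6v0c-ps2, Atp6v1b1, Atp6v1e2 and Atp6v1g3, the neutrophil protease gene Ctsg, and Ctsj, Ctsm, Ctsq and Ctsr, which are cathepsins of the placenta. The remaining untested members, Atp6v0c, Atp6v0d2, Atp6v1c2, Atp6v1g2, Ctsk and Ctsw, stayed at or below 2.93 CPM in every library. Atp6v0c encodes the proteolipid of the V0 ring, without which the pump cannot work, yet it had 0 to 2 counts per library. Near-identical copies of it exist, among them the pseudogene with the row Atp6v0c-ps2, and how the authors counted reads shared by copies is not given in the sources used here. Its level is therefore uncertain and is not described further. The pump sums below include its row as counted.

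On the TMM scale, both double positive libraries had higher summed levels of the proton pump, the cathepsins and the Lamp genes than any other library. Summed over the 26 pump genes, the level was 3443 and 3528 CPM in replicates 7 and 8, against 1293, 1568 and 1336 CPM in endothelial and 1227, 1321 and 1412 CPM in erythroid libraries. The pump sums of endothelial and erythroid libraries overlapped. The 18 cathepsins summed to 8218 and 6359 CPM in double positive libraries, 2239, 4071 and 2348 CPM in endothelial and 1647, 1677 and 1896 CPM in erythroid libraries. Lamp1 and Lamp2 together stood at 1287 and 1009 CPM, 695, 986 and 714 CPM, and 372, 309.6 and 317 CPM in the same order of populations. As a share of all counts, the pump was highest in both double positive libraries (0.389% and 0.36%, against 0.259% at most elsewhere), but the other sums were not. The Lamp share of replicate 8 (0.103%) lay below all endothelial libraries (0.119%, 0.163% and 0.118%), also with globin and Rn45s left out (0.141% against 0.145%, 0.205% and 0.149%). The cathepsin share of replicate 8 (0.648%) lay below endothelial replicate 2 (0.672%), but above it with globin and Rn45s left out (0.888% against 0.845%). Visceral endoderm markers moved with the TMM sums, at 90795 and 90849.9 CPM in the double positive libraries and at most 45.9 CPM in the others. Whether they have a part in the sums was not tested.

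Counts of members past the test were read against the share of all 12136 genes tested (edgeR quasi-likelihood test, Benjamini-Hochberg adjusted p under 0.05). In double positive against endothelial libraries, 16 of the 30 tested members were higher and 3 lower, against 14.6% and 6.92% of all genes. Their median log2 difference was 0.97, or 0.89 with genes at 0 in 1 population set to their bound, against 0.06 and 0.05 over all genes. In double positive against erythroid libraries, 21 were higher and 2 lower, against 31.5% and 10.6% of all genes, with a median of 1.496 against 0.71 over all genes. In erythroid against endothelial libraries, 3 were higher and 13 lower, against 14.4% and 26.6% of all genes, with a median of −0.52 against −0.36. Above both other populations in the double positive libraries stood 16 members, against 9.33% of all genes, and 1, Ctsd, stood below both, against 1.60%. Both comparisons behind these last counts use the same 2 double positive libraries. Of the 30, 3 passed the filter through 1 population alone (Atp6v0a4 through double positive, Ctse through erythroid and Ctss through endothelial libraries) and so had to differ. Without them, in the same order, the counts were 15 higher and 2 lower, 20 and 1, and 2 and 12, with 15 above both. In either direction, 16 members passed between erythroid and endothelial (41.0% of all genes), 19 between double positive and endothelial (21.6%) and 23 between double positive and erythroid libraries (42.0%). The libraries of the 2 populations did not overlap for 18, 23 and 26 of the 30 in these comparisons, against 50.8%, 57.5% and 67.5% of all genes.

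Globin took 54.5% to 56.5% of erythroid counts, and the choice of scaling moved every comparison. Under library size alone the median of all genes moved from −0.36 to −1.90 for erythroid against endothelial, and 1 member was then higher and 28 lower. For double positive against endothelial 9 were then higher and 5 lower, with the median of all genes at −0.57, and against erythroid 26 were higher and 0 lower, with that median at 1.61. Shares of all genes past the test were counted on the TMM scale only, so counts under other scalings have none beside them. Without double positive replicate 7, 10 members were above endothelial libraries and 10 above both others, and without replicate 8 these counts were 11 and 11. Without endothelial replicate 2, which had the highest macrophage markers, double positive exceeded endothelial libraries for 16 members and fell short for 1, and erythroid exceeded endothelial libraries for 3 and fell short for 12.

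**Figure D1:**
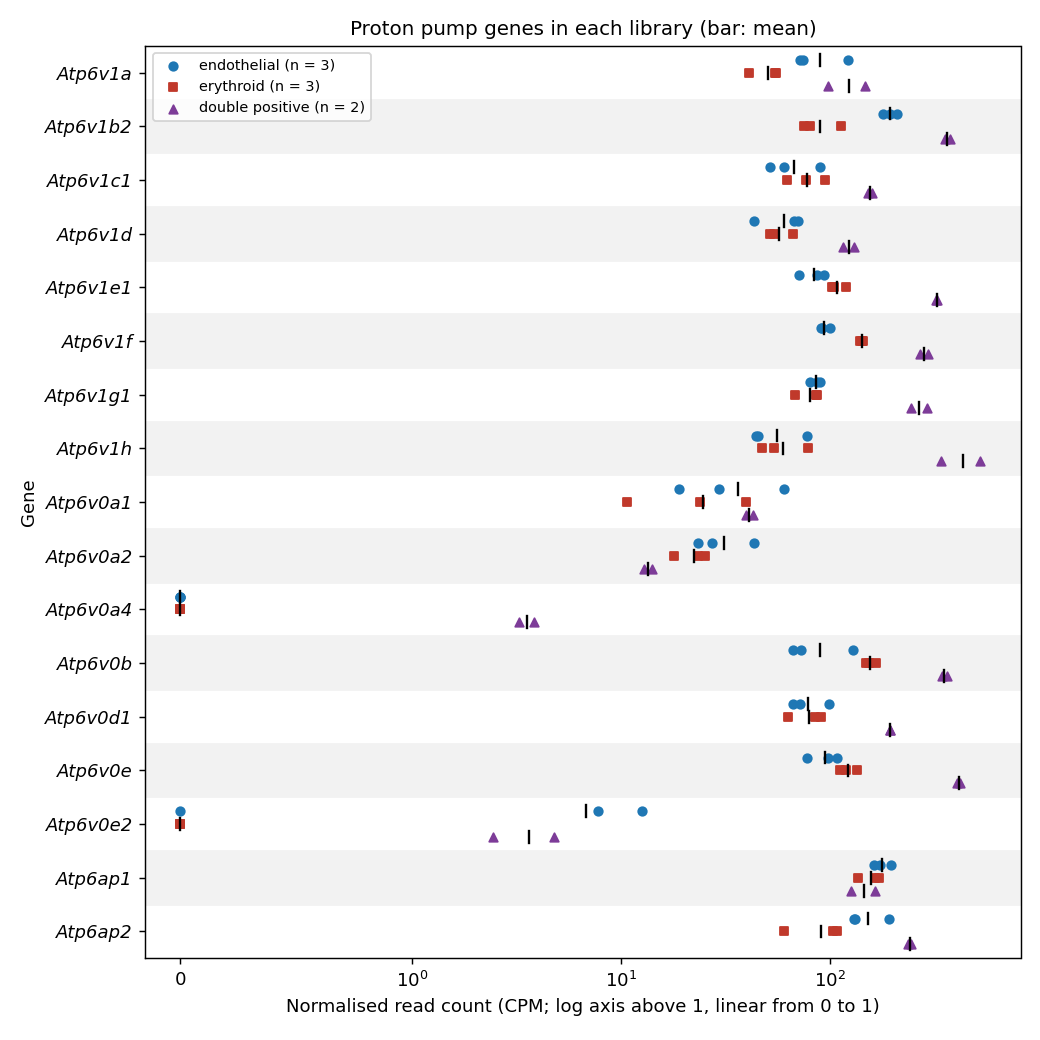
Normalised read count (CPM, log axis above 1) of the 17 tested proton pump genes in each library, with circles for endothelial, squares for erythroid and triangles for double positive pools and a bar at each mean. For Atp6v1e1 both double positive libraries (323 and 326 CPM) lie above all 6 others (71.3 to 119.5 CPM), whereas the 3 populations overlap for Atp6v0a1.

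The V1 sector was tested through 8 genes, 1 for each of its subunits A to H. In double positive libraries 7 of the 8 were higher than in endothelial and all 8 higher than in erythroid libraries, against 14.6% and 31.5% of all genes. Their median log2 differences were 1.40 and 1.43, against 0.06 and 0.71 over all genes. Between erythroid and endothelial libraries 1 rose, 2 fell and 5 did not pass, with a median of 0.02. The shares of all genes were 14.4% higher and 26.6% lower. Under library size alone 0 rose and 8 fell in erythroid against endothelial libraries, and 4 of the 8 were higher in double positive than in endothelial libraries.

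Atp6v1h, which encodes the regulatory subunit H that couples ATP splitting to proton flow, was the V1 gene with the largest difference. It stood at 44.2, 77.9 and 45.3 CPM in endothelial, 47.5, 54.2 and 78.2 CPM in erythroid, and 341 and 526 CPM in double positive libraries. Endothelial and erythroid libraries overlapped, and both double positive libraries lay above all of them. The level in double positive was 7.77-fold that in endothelial libraries (log2 difference 2.96, SE 0.33, adjusted p = 0.000486) and 7.24-fold that in erythroid libraries (2.86, SE 0.33, adjusted p = 0.000239). Rgs20, whose exons share 127 bases with those of Atp6v1h (chromosome 1, 5070018 to 5162529, plus strand, GRCm38), had 0 counts in every library.

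Subunit E, a stalk that holds the pump's outer sector in place, is encoded by Atp6v1e1. Its levels were 86.5, 71.3 and 93.7 CPM in endothelial, 102, 105 and 119.5 CPM in erythroid, and 323 and 326 CPM in double positive libraries. The double positive libraries were 3.87-fold higher than the endothelial (log2 1.95, SE 0.17, adjusted p = 0.000125) and 2.98-fold higher than the erythroid libraries (adjusted p = 0.000169). Atp6v1g1, the partner of E in the stalk, read 90.0, 87.2 and 80.0 CPM, then 67.7, 86.2 and 86.6 CPM, then 245 and 291 CPM, in the same order. Its double positive libraries were 3.13-fold and 3.35-fold higher than the endothelial and erythroid libraries (adjusted p = 0.000439 and 0.000135). Between endothelial and erythroid libraries neither stalk gene passed (adjusted p = 0.087 for Atp6v1e1 and 0.694 for Atp6v1g1).

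Atp6v1f encodes a subunit of the central rotor and was also highest in double positive libraries. It stood at 91.1, 99.8 and 91.5 CPM in endothelial, 139, 144 and 143 CPM in erythroid, and 269 and 296 CPM in double positive libraries. The 3 populations did not overlap. The double positive pools were 3.002-fold above endothelial (adjusted p = 0.000153) and 1.99-fold above erythroid libraries (adjusted p = 0.000809). Erythroid libraries were 1.51-fold above endothelial libraries (log2 0.59, SE 0.13, adjusted p = 0.00652), but under library size alone they were below them (log2 −0.95, adjusted p = 0.000304). Atp6v1d, of the same rotor, and Atp6v1c1, which links rotor housing and membrane sector, were 2.04-fold and 2.33-fold higher in double positive than in endothelial libraries and 2.15-fold and 1.99-fold higher than in erythroid libraries. Without replicate 7 neither gene passed in either comparison (adjusted p from 0.0686 to 0.156), and under library size alone neither exceeded endothelial libraries past the test (0.287 for Atp6v1d and 0.149 for Atp6v1c1).

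The catalytic head is built of subunits A and B. Atp6v1b2, the B subunit gene of most tissues, stood at 211, 194 and 179 CPM in endothelial, 75.0, 80.5 and 114 CPM in erythroid, and 377 and 355 CPM in double positive libraries. No 2 populations overlapped. Erythroid libraries were 2.17-fold lower than endothelial (log2 −1.12, SE 0.18, adjusted p = 0.00119), and double positive libraries were 1.88-fold higher than endothelial (adjusted p = 0.012) and 4.08-fold higher than erythroid libraries (adjusted p = 9.69e-05). Its endothelial comparison with the double positive pools did not pass without replicate 7 (adjusted p = 0.0792) or replicate 8 (0.0607), or under library size alone (log2 0.28, adjusted p = 0.376). Atp6v1b1, the B subunit gene of acid-secreting cells, had 0 counts throughout. Atp6v1a, the ATP-splitting A subunit gene, read 71.9, 74.4 and 122 CPM, then 54.7, 41.2 and 55.0 CPM, then 148 and 97.9 CPM. Double positive and endothelial libraries overlapped for it (log2 0.46, SE 0.30, adjusted p = 0.335), and its 2.44-fold excess over erythroid libraries (adjusted p = 0.0091) did not pass without replicate 7 (adjusted p = 0.0964). The 1.78-fold lower level in erythroid than in endothelial libraries (adjusted p = 0.0389) was lost without any 1 of replicates 3, 4, 5 and 6, with adjusted p from 0.0515 to 0.132.

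In the V0 sector 7 of 10 genes were tested. Double positive libraries were higher for 4 of them than endothelial and for 4 than erythroid libraries, and lower for none. Among all genes, 14.6% and 31.5% were higher. The median log2 differences of the V0 genes were 1.29 and 1.28, against 0.06 and 0.71 over all genes. Under library size alone 2 exceeded endothelial libraries and 1 fell short, while 6 exceeded erythroid libraries. The shares of all genes were counted on the TMM scale only. With RLE factors, or with globin and Rn45s removed, 4 exceeded endothelial libraries and 1 fell short. Between erythroid and endothelial libraries 1 was higher, 1 lower and 5 did not pass, whereas under library size alone 0 were higher and 6 lower. On the TMM scale these calls were no larger than the shares of all genes, 14.4% higher and 26.6% lower. The counts for double positive libraries on the TMM scale include Atp6v0a4, which passed the filter through them alone. Those under the other scalings include it wherever it was called.

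Atp6v0e, a small membrane subunit gene, stood at 97.8, 109 and 77.9 CPM in endothelial, 135, 112 and 119.5 CPM in erythroid, and 419.8 and 407 CPM in double positive libraries. Both double positive libraries were far above the rest, 4.36-fold over endothelial (log2 2.12, SE 0.18, adjusted p = 0.0001005) and 3.38-fold over erythroid libraries (adjusted p = 0.000111). Its paralog Atp6v0e2, best known from brain, read 12.5, 0 and 7.74 CPM in endothelial libraries, 0 in all erythroid libraries, and 4.77 and 2.44 CPM in double positive libraries. Its erythroid level passed as at least 23.7-fold lower than the endothelial (adjusted p = 0.0398), although 1 endothelial library was also at 0, and with limma-voom it did not pass (adjusted p = 0.11). Atp6v0b, a proteolipid of the rotating ring whose promoter stretch with 2 E-boxes is printed above, stood at 66.4, 129 and 73.1 CPM, then 149, 165 and 153 CPM, then 363 and 344 CPM. The 3 populations did not overlap for it. Its double positive level was 3.95-fold above endothelial (adjusted p = 0.00128) and 2.27-fold above erythroid libraries (adjusted p = 0.00735). The erythroid level was 1.75-fold the endothelial level (adjusted p = 0.0259), a call that did not hold under RLE factors (adjusted p = 0.0647) and that turned to a lower level under library size alone (log2 −0.74, adjusted p = 0.0265). Atp6v0d1, which joins the ring to the rotor, was at 193 CPM in both double positive libraries and at 62.7 to 98.6 CPM in the other 6, 2.45-fold and 2.43-fold higher (adjusted p = 0.00571 and 0.00279). Under library size alone its excess over endothelial libraries did not pass (log2 0.66, adjusted p = 0.0733).

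The a subunit, which holds the proton path and decides in which membrane the pump sits, has 4 genes, which had lower counts than most other subunits. Atp6v0a1 read 29.4, 60.4 and 19.0 CPM in endothelial, 10.7, 39.6 and 23.8 CPM in erythroid, and 42.8 and 39.5 CPM in double positive libraries. The populations overlapped and no difference passed (adjusted p = 0.348 to 0.878). Atp6v0a2, a Golgi and endosome form, stood at 27.2, 23.3 and 43.1 CPM, then 17.9, 25.3 and 23.4 CPM, then 14.1 and 12.8 CPM. It was the lowest in double positive libraries, 2.31-fold under endothelial libraries, without passing (log2 −1.21, SE 0.41, adjusted p = 0.0671); with RLE factors it passed (adjusted p = 0.0491). Atp6v0a4, the form of kidney acid-secreting cells, was listed only in the double positive libraries, at 3.82 and 3.26 CPM (20 and 16 counts). It passed the filter through those libraries alone, so its call as at least 23.5-fold above endothelial and 12.4-fold above erythroid libraries was fixed by that, and 259 bases of its exons are shared with D630045J12Rik on the same strand. Tcirg1, the a3 form of osteoclasts and macrophages, which the symbol rule leaves out, stood at 24.6, 47.0 and 54.7 CPM in endothelial, 1.63, 7.29 and 0 CPM in erythroid, and 6.11 and 7.73 CPM in double positive libraries.

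Levels of the 4 genes can be compared with each other per kilobase of exon. On that scale Tcirg1 made up 46.4% ± 8.93 of the a subunit transcripts in endothelial (SD, n = 3), 7.17% ± 6.96 in erythroid (SD, n = 3) and 14.4% ± 2.82 in double positive libraries (SD, n = 2). Atp6v0a1 made up 28.8% ± 13.6, 46.4% ± 9.81 and 59.8% ± 1.54, and Atp6v0a2 24.8% ± 8.43, 46.5% ± 12.3 and 19.1% ± 0.724, in the same order. The share of Tcirg1 in the endothelial libraries, 38.5%, 44.6% and 56.1% in replicates 1, 2 and 3, lay above every other library. Macrophage markers were also highest in the endothelial libraries, at 1701, 4421 and 1791 CPM in replicates 1 to 3. Whether they have a part in this share was not tested.

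Of the 2 tested accessory genes, 1 was higher in double positive than in erythroid libraries and 0 passed between double positive and endothelial libraries. Of all genes, 31.5% were higher in the first comparison and 21.6% passed in either direction in the second. Atp6ap1, an assembly factor of the pump, read 164, 196 and 174 CPM in endothelial, 137, 171 and 165 CPM in erythroid, and 165 and 127 CPM in double positive libraries. The 3 populations overlapped, with no difference past the test (adjusted p = 0.346 to 0.681). Under library size alone, however, Atp6ap1 passed in every comparison. Its erythroid and double positive levels then fell short of the endothelial level, and its double positive level exceeded the erythroid level. Atp6ap2, the prorenin receptor and another assembly factor, stood at 132, 192 and 131 CPM, then 60.1, 103 and 108 CPM, then 244 and 238 CPM. The double positive level was 2.67-fold the erythroid level (log2 1.42, SE 0.28, adjusted p = 0.00378), and 1.59-fold the endothelial level without passing (adjusted p = 0.124). The erythroid level was 1.68-fold under the endothelial level (adjusted p = 0.0412), which did not pass without replicate 2 (adjusted p = 0.13) or replicate 1, 4, 7 or 8.

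**Figure D2:**
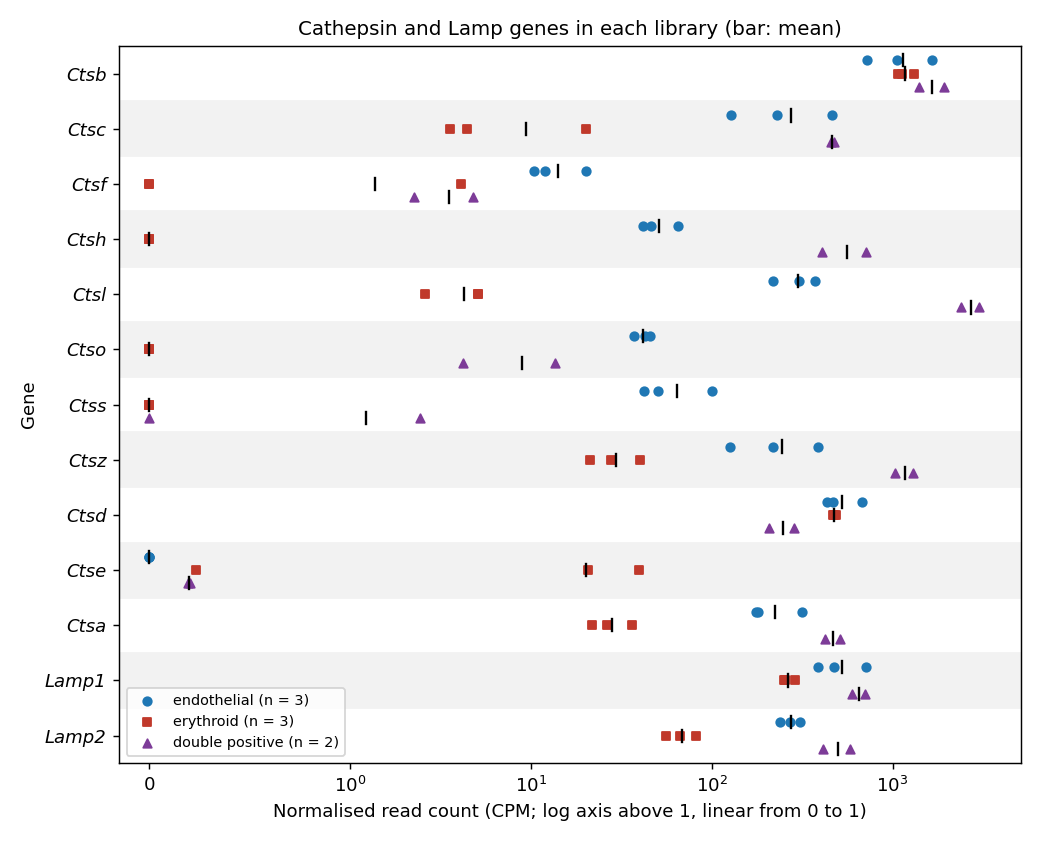
Normalised read count (CPM, log axis above 1) of the 11 tested cathepsins and the 2 Lamp genes in each library, symbols as for the pump genes and a bar at each mean. Ctsl spans from 2.61 to 5.12 CPM in erythroid to 2402 and 3009 CPM in double positive libraries, while the 3 populations lie close together for Ctsb.

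Most cathepsins were lowest in erythroid libraries. Of the 11 tested, 7 fell and 1, Ctse, rose in erythroid against endothelial libraries, against 26.6% and 14.4% of all genes. Their median log2 difference was −3.38 against −0.36 over all genes. Double positive libraries were higher than endothelial for 4 and lower for 3, against 14.6% and 6.92% of all genes. They were higher than erythroid for 6 and lower for 2, against 31.5% and 10.6%. With genes at 0 set to their bound, the medians of these last comparisons were 0.54 and 4.06, against 0.05 and 0.61 over all genes. Ctse and Ctss passed the filter through 1 population alone. The counts include them where they were called, and those calls were fixed by the filter.

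Ctsl, a cysteine cathepsin of endocytic cells that digests ingested protein, had the largest fold of any member with counts in every library. It stood at 304, 372 and 219 CPM in endothelial, 5.12, 5.07 and 2.61 CPM in erythroid, and 3009 and 2402 CPM in double positive libraries. The populations did not overlap. Double positive libraries were 9.07-fold above endothelial (log2 3.18, SE 0.26, adjusted p = 8.23e-05) and 622-fold above erythroid libraries (log2 9.28, SE 0.34, adjusted p = 1.57e-06), and erythroid libraries were 68.5-fold below endothelial libraries (log2 −6.10, SE 0.31, adjusted p = 2.16e-06). Its gene (chromosome 13, 64359337 to 64370890, minus strand) shares 26.8% of its exon length with Gm47123 on the other strand, which has no row in the table, and Smart-seq2 does not mark strand.

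Ctsh, an aminopeptidase of the same family, had 46.3, 41.8 and 65.2 CPM in endothelial libraries, 0 in all erythroid libraries, and 712 and 409 CPM in double positive libraries. Its level in double positive was 10.96-fold that in endothelial libraries (log2 3.45, SE 0.31, adjusted p = 0.000575) and at least 1965-fold that in erythroid libraries, the floor being 3 counts over the group. Ctsz, a carboxypeptidase, followed the same order with counts everywhere: 219, 385 and 126 CPM, then 40.0, 21.2 and 27.7 CPM, then 1305 and 1030.1 CPM. The double positive pools were 4.80-fold above endothelial (adjusted p = 0.00599) and 39.1-fold above erythroid libraries (adjusted p = 5.99e-05), and erythroid libraries 8.15-fold below endothelial libraries (adjusted p = 0.00047). Visceral endoderm markers stood over 90795 CPM only in the pools in which Ctsl, Ctsh and Ctsz were highest. Whether they have a part in these levels was not tested.

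Ctsa, the serine carboxypeptidase that also shields lysosomal sialidase and galactosidase, read 175, 317 and 181 CPM in endothelial, 21.9, 26.3 and 36.2 CPM in erythroid, and 515 and 422 CPM in double positive libraries. Erythroid libraries were 8.01-fold under endothelial (log2 −3.001, SE 0.30, adjusted p = 7.78e-05) and 16.7-fold under double positive libraries (adjusted p = 3.23e-05). The 2.09-fold excess of double positive over endothelial libraries (adjusted p = 0.0332) did not pass without replicate 1, 3, 7 or 8 (adjusted p from 0.0942 to 0.201) or under library size alone (adjusted p = 0.33). Ctsc, the dipeptidyl peptidase that activates serine proteases of blood cells, stood at 228, 464 and 128 CPM, then 20.02, 4.44 and 3.58 CPM, then 456 and 472 CPM. Endothelial and double positive libraries overlapped for it (adjusted p = 0.456), and erythroid libraries were 27.9-fold and 47.4-fold lower (adjusted p = 0.000649 and 0.00048).

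Ctss and Ctso had lower levels in double positive pools than in endothelial pools. Ctss, the cathepsin of antigen-presenting cells, read 50.7, 100.2 and 42.3 CPM in endothelial libraries, 0 in all erythroid libraries, and 0 and 2.44 CPM in double positive libraries. Its double positive level was 52.5-fold under the endothelial level (log2 −5.71, SE 1.17, adjusted p = 0.0162), a call that did not pass without replicate 2 (log2 −5.25, adjusted p = 0.0594). The 16 macrophage markers moved with it, from 1701 to 4421 CPM in endothelial to 304 and 297 CPM in double positive libraries and 0 in erythroid libraries. Whether they have a part in the Ctss level was not tested. Ctss passed the filter on low counts through the endothelial libraries alone, so its calls were fixed by that. Ctso, a widely expressed cysteine cathepsin, stood at 42.6, 37.1 and 45.3 CPM, then 0, then 4.20 and 13.6 CPM. Its double positive level was 4.67-fold under the endothelial level (adjusted p = 0.047), which passed in none of the fits without 1 endothelial or double positive library (adjusted p from 0.0594 to 0.25). Ctsf, the remaining tested cysteine cathepsin of low level, reached 20.2 CPM at most and passed in no comparison, although its lower erythroid than endothelial level passed with DESeq2 (adjusted p = 0.0198) and limma-voom (0.0059).

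Ctsb, a cathepsin with both endo- and carboxypeptidase activity, passed in no comparison. It read 726, 1653 and 1059 CPM in endothelial, 1075, 1124 and 1319 CPM in erythroid, and 1925 and 1397 CPM in double positive libraries. Erythroid and endothelial libraries overlapped (log2 0.03, SE 0.27, adjusted p = 0.976), although under library size alone the erythroid level was lower (log2 −1.504, adjusted p = 0.00193). Its double positive level was 1.45-fold the endothelial level without passing (adjusted p = 0.258), and passed without replicate 2 (log2 0.89, adjusted p = 0.0405). Exons of Ctsb share 774 bases with Fdft1 on the other strand, which had 5585 counts in all.

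Of the aspartic cathepsins, 1 was lowest in double positive and 1 highest in erythroid libraries. Ctsd, the main aspartic protease of lysosomes, stood at 436, 681 and 466 CPM in endothelial, 485, 472 and 467 CPM in erythroid, and 286 and 208 CPM in double positive libraries. Endothelial and erythroid libraries overlapped (adjusted p = 0.581), and both double positive libraries lay below them all, 2.13-fold under endothelial (log2 −1.09, SE 0.22, adjusted p = 0.00993) and 1.92-fold under erythroid libraries (log2 −0.94, SE 0.22, adjusted p = 0.00968). Exons of Ctsd share 34.4% of their length with Gm49369 on the same strand, which has no row in the table. Without replicate 8 neither difference passed (adjusted p = 0.0842 and 0.0892), and under library size alone the difference from erythroid libraries was −0.02 on the log2 scale. Ctse, an aspartic protease of erythroid, gastric and immune cells, was at 0 in the endothelial libraries and had 1, 65 and 122 counts in erythroid replicates 4, 5 and 6, or 0.233, 20.6 and 39.7 CPM. Each double positive library had 1 count. It was at least 134-fold higher in erythroid than in endothelial libraries (adjusted p = 0.0107) and 102-fold higher than in double positive libraries, with a 95% counting interval of 28.4 to 846 (adjusted p = 0.0445). Ctse passed the filter through erythroid replicates 5 and 6 alone, so these calls were fixed by that. Erythroid replicate 4 was close to the populations without the transcript, and the double positive comparison did not pass with limma-voom (adjusted p = 0.108) or under library size alone (0.0696).

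**Figure D3:**
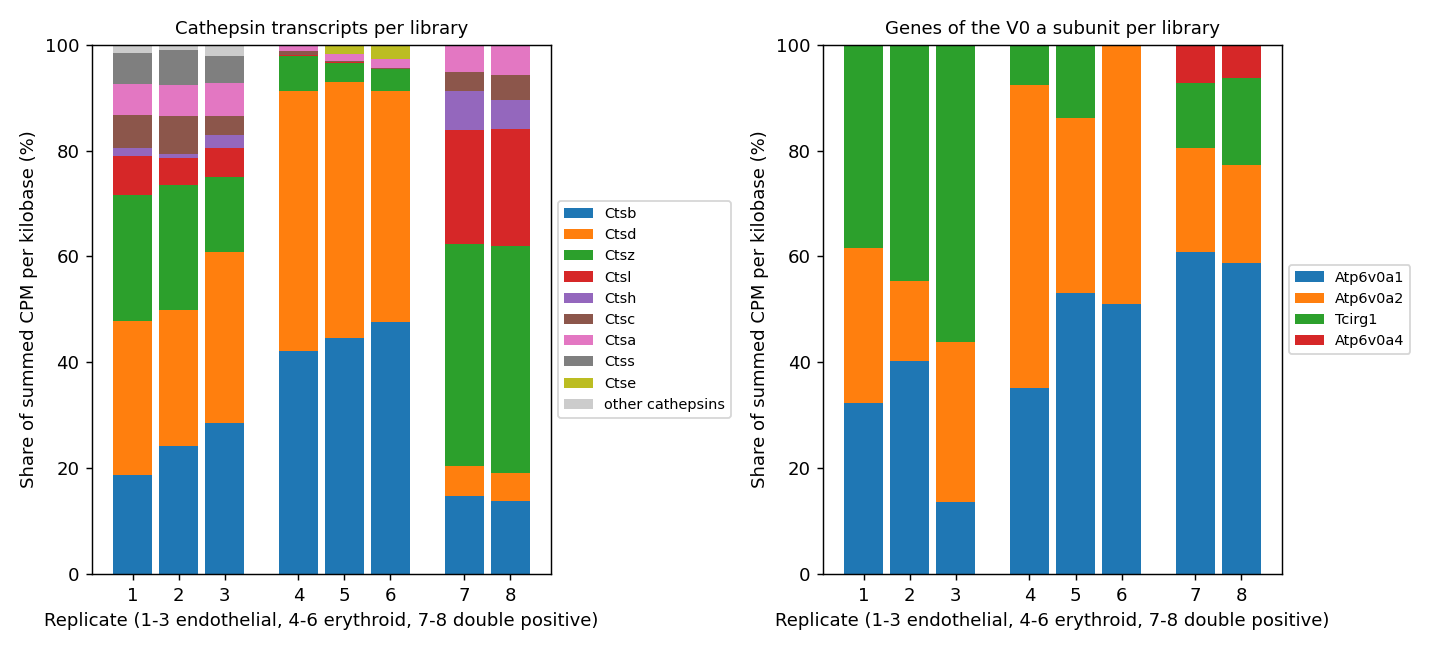
Shares of summed CPM per kilobase of exon in each library, for the cathepsins (left) and the 4 genes of the pump's a subunit (right), with replicates 1 to 3 endothelial, 4 to 6 erythroid and 7 and 8 double positive. Ctsb and Ctsd together fill 91.8% of the erythroid bars on the left, and Ctsl and Ctsz together 64.2% of the double positive bars.

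Per kilobase of exon, the makeup of the cathepsin pool differed between the populations by more than the spread of their libraries. Ctsb and Ctsd together made up 91.8% ± 1.02 in erythroid (SD, n = 3), 52.8% ± 6.98 in endothelial (SD, n = 3) and 19.8% ± 0.899 in double positive libraries (SD, n = 2). Ctsl and Ctsz together made up 64.2% ± 1.03 of the double positive pool, 26.5% ± 6.02 of the endothelial and 4.94% ± 1.63 of the erythroid pool. Ctsz alone was the first in double positive libraries, at 42.4% ± 0.567, with Ctsl second at 21.8% ± 0.46 and then Ctsb at 14.3% ± 0.658. In erythroid libraries Ctsd and Ctsb, at 46.9% ± 3.02 and 44.9% ± 2.73, did not differ beyond their spread. Endothelial libraries were led by Ctsd (29.0% ± 3.32), Ctsb (23.8% ± 4.88) and Ctsz (20.6% ± 5.49). The range of Ctsb overlapped those of both others, while Ctsd (25.7% to 32.3%) lay above Ctsz (14.2% to 23.8%), and Ctss added 5.82% ± 0.735. Ctsh added 6.39% ± 1.34 in double positive libraries and 1.60% ± 0.768 in endothelial libraries. No test was made on these shares, and they lean on the GENCODE exon lengths, which join all transcripts of a gene.

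Both Lamp genes fell in erythroid against endothelial libraries, and 1, Lamp2, was higher in double positive than in endothelial libraries. Of all genes, 26.6% were lower in the first comparison and 14.6% higher in the second. Lamp1, the most used marker of lysosomes, stood at 386, 714 and 476 CPM in endothelial, 289.6, 253 and 250.1 CPM in erythroid, and 708 and 595 CPM in double positive libraries. Its erythroid level was 1.99-fold under the endothelial level (log2 −0.99, SE 0.22, adjusted p = 0.00609) and 2.46-fold under the double positive level (adjusted p = 0.00277). Double positive and endothelial libraries overlapped (log2 0.31, SE 0.24, adjusted p = 0.425). Lamp2, a form of which guides proteins into the lysosome for chaperone-mediated autophagy, read 309, 272 and 238 CPM, then 82.2, 56.1 and 66.8 CPM, then 579 and 414 CPM. The populations did not overlap: erythroid libraries were 3.99-fold under endothelial (log2 −1.99, SE 0.20, adjusted p = 9.44e-05) and 7.25-fold under double positive libraries (adjusted p = 3.04e-05). The double positive pools were 1.82-fold above endothelial (adjusted p = 0.0215), which did not pass without replicate 2 (adjusted p = 0.0543), 3 (0.0689) or 7 (0.207). Per kilobase of exon Lamp2 made up 6.72% ± 0.791 of the Lamp transcripts in erythroid, 13.4% ± 4.46 in endothelial and 17.5% ± 1.66 in double positive libraries.

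**Figure D4:**
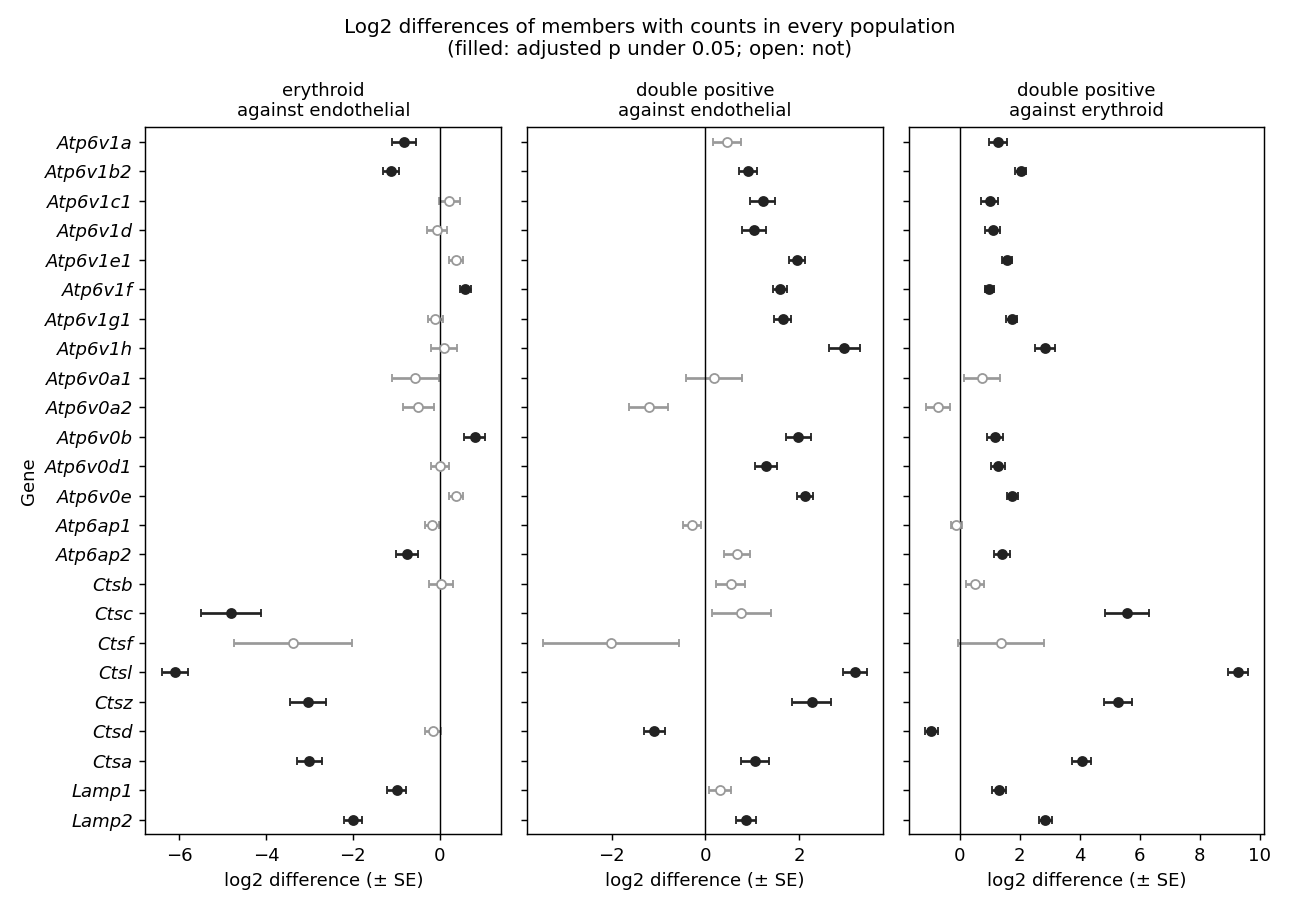
Log2 differences (points, with SE bars) in the 3 comparisons for the 24 members with more than 3 counts in every population, filled where the adjusted p was under 0.05. In the middle panel Atp6v1h (2.96) and Ctsl (3.18) lie farthest to the right and Ctsd (−1.09) is the filled point to the left of 0.

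Endothelial replicate 2 was the highest of its 3 libraries for 18 of the 30 tested members, 60.0% against 33.3% of all genes tested. By class these were 9 of 17 pump genes, 8 of 11 cathepsins and Lamp1. The ratio of replicate 2 to the mean of replicates 1 and 3 was 2.60 for Ctsc, 2.49 for Atp6v0a1, 2.24 for Ctsz, 2.16 for Ctss and 1.85 for both Ctsb and Atp6v0b. It was 0.997 for Atp6v1b2, 0.994 for Lamp2, 0.767 for Atp6v1a and 0.75 for Ctsh. Macrophage markers summed to 4421 CPM in that library against 1701 and 1791 CPM in the others. Whether they have a part in these ratios was not tested.

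Other lysosome genes, from lists outside the symbol rule, are given beside the share of all genes: 14.4% higher and 26.6% lower for erythroid against endothelial, 14.6% and 6.92% for double positive against endothelial, and 31.5% and 10.6% for double positive against erythroid libraries. Of 35 other hydrolases, 22 fell and 2 rose in erythroid against endothelial libraries. Double positive libraries were higher for 6 and lower for 1 than endothelial, and higher for 21 and lower for 1 than erythroid libraries. The 6 above endothelial libraries were close to the share of all genes. Lipa, the acid lipase of lysosomes, stood at 109, 88.4 and 108 CPM in endothelial libraries, 0 in erythroid, and 68.2 and 51.1 CPM in double positive libraries. Lgmn, the asparagine-specific protease that processes cathepsins, read 449.6, 718 and 447 CPM, then 21.6, 4.12 and 1.63 CPM, then 976 and 708 CPM. Its erythroid level was 55.5-fold under the endothelial level (adjusted p = 0.00027), and its double positive level did not differ past the test from the endothelial level (adjusted p = 0.531). Neu1, the lysosomal sialidase that Ctsa shields, read 25.7, 29.6 and 22.8 CPM in endothelial, 0, 0.317 and 0 CPM in erythroid, and 139 and 116 CPM in double positive libraries, 4.89-fold above endothelial (adjusted p = 0.002). Acp5, the tartrate-resistant acid phosphatase, ran against the list at 1342, 1557 and 1297 CPM in erythroid, 175 and 159.6 CPM in double positive and 1.85, 6.998 and 1.45 CPM in endothelial libraries. It was the 1 gene tested of 8 listed markers of osteoclasts and acid-secreting cells, of which 7 were at 0 in the erythroid libraries.

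Lysosome membrane and transport genes fell in 13 of 23 tested cases and rose in none in erythroid against endothelial libraries. In double positive libraries 4 were higher and 3 lower than in endothelial, and 14 higher and 0 lower than in erythroid libraries. The 4 above endothelial libraries were close to the share of all genes. Cd63, a tetraspanin of late endosomes, was at 55.0, 88.4 and 102 CPM in endothelial libraries, 0 in erythroid and 1248 and 1023 CPM in double positive libraries, and Npc2, the cholesterol carrier of the lysosome lumen, at 121, 176 and 109.9, then 17.9, 23.8 and 24.8, then 477 and 487 CPM. Among 10 sorting genes, 2 fell in erythroid against endothelial libraries, double positive libraries exceeded endothelial for 3 and fell short for 1, and exceeded erythroid libraries for 3 and fell short for 0. The sorting counts against erythroid and for erythroid against endothelial libraries were no larger than the shares of all genes. Igf2r, the large mannose 6-phosphate receptor, was 8.25-fold lower in erythroid than in endothelial libraries (adjusted p = 0.000492). Of 11 tested pump genes and assembly factors outside the rule, 3 fell in erythroid against endothelial libraries, 0 differed between double positive and endothelial, and 4 were higher in double positive than in erythroid libraries. Of these counts, the first and the last were close to the shares of all genes. For 6 tested transcription regulators the calls were 1 lower, 0, and 2 higher in the same comparisons. These counts were close to or below the shares of all genes. Tfec, of the TFEB family, had the smallest adjusted p, at 50.2, 69.8 and 45.7 CPM, 0 in all erythroid libraries, and 37.6 and 38.9 CPM.

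The scaffold that tethers the growth kinase mTORC1 to lysosomes had 11 tested genes, of which 1 rose and 4 fell in erythroid against endothelial libraries, and in double positive libraries 3 were higher than in endothelial and 8 than in erythroid libraries. Both tested inhibitors of cysteine cathepsins fell in erythroid against endothelial libraries. Cstb, the cytosolic inhibitor, stood at 86.1, 152 and 101 CPM in endothelial, 67.7, 52.9 and 50.5 CPM in erythroid, and 1048 and 961 CPM in double positive libraries, 8.88-fold above endothelial (adjusted p = 7.43e-05). Cst3, the secreted inhibitor, read 294, 466 and 274 CPM, then 56.3, 64.3 and 73.9 CPM, then 236 and 255 CPM, and did not differ past the test between double positive and endothelial libraries (adjusted p = 0.204). Under library size alone the counts of genes lower in erythroid against endothelial libraries were 31 hydrolases, 21 membrane and transport genes, 5 sorting genes, 10 pump and assembly genes, 5 regulators and 10 scaffold genes. No shares of all genes were counted under that scaling, where the median of all genes was −1.90 for erythroid against endothelial libraries. For double positive against endothelial libraries, 4 hydrolases were then higher and 5 lower, and 2 membrane and transport genes higher and 4 lower. Sorting genes had 2 higher and 2 lower, and scaffold genes 0 and 0. The median log2 difference of the hydrolases moved from 0.44 to −0.18, and that of all genes from 0.06 to −0.57.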

How the data were processed

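The authors deposited raw read counts per gene symbol for 8 Smart-seq2 libraries amplified with 14 PCR cycles, per the labels. Per the submitters' processing notes, FastQC and HTSeq were used on build mm10; their versions, the aligner, the annotation and strandedness are not stated in the labels. Columns were matched to samples by title. The members and lists were chosen with earlier results of these data known.

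Genes were kept by filterByExpr (minimum count 10; 12136 of 24454). All libraries entered 1 edgeR quasi-likelihood fit (edgeR 4.0.16, R 4.3.3; TMM factors, a mean for each population), tested on simulated data. CPM uses effective library sizes and is not a share of counts. The SE of a log2 difference is its absolute value divided by the square root of the F statistic of its test. Folds against 0 counts use a floor of 3 counts over the group. Exon lengths and coordinates came from GENCODE M21 (GRCm38), and promoters from RefSeq. Members described in full were, per comparison, the 6 pump and 6 other members with the smallest adjusted p at 20 CPM or more, plus 15 fixed ones. Members outside this rule (Atp6v0a4, Atp6v0d1, Atp6v0e2, Atp6v1c1, Atp6v1d, Ctsf) were chosen for mention after their values were seen. From the other lists, up to 2 genes with the smallest adjusted p per list and comparison could be named, besides Tcirg1 and Lgmn. No replicate pair was identical. Alternatives were limma-voom (limma 3.58.1), DESeq2 1.42.0, RLE factors, library size alone, globin and Rn45s removed, other filters, no robust estimation, only the populations compared, and each library left out; leaving out members that passed the filter through 1 population was added after seeing the data.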

Additional observations from a re-analysis of the deposited data

How the results depend on the processing

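Member counts held within 1.5-fold under every alternative except these and the fit without double positive replicate 7, which is described above. Under library size alone, erythroid exceeded endothelial libraries for 1 member and fell short for 28, double positive exceeded endothelial libraries for 9 and fell short for 5, double positive fell short of erythroid libraries for 0, 9 members stood above both and 0 below both. With only the populations compared, erythroid exceeded endothelial libraries for 0 members and double positive fell short of endothelial libraries for 5, and with limma-voom double positive fell short of erythroid libraries for 1; the cause was not tested. Leaving out 1 library at a time, erythroid exceeded endothelial libraries for 1 to 3 members and fell short for 10 to 12, double positive exceeded endothelial libraries for 10 to 16 and fell short for 1 to 3, double positive exceeded erythroid libraries for 18 to 22 and fell short for 0 to 2, and 10 to 15 members stood above both and 0 to 1 below both. Erythroid exceeded endothelial libraries for 1 member without replicate 5 or 6; double positive fell short of endothelial libraries for 1 without replicate 2 or 8 and of erythroid libraries for 1 without replicate 5, 6 or 7 and for 0 without replicate 8, which also left 0 below both.

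Log2 differences of the tested members changed sign as follows. Under library size alone, for erythroid against endothelial: Atp6v0b −0.74, Atp6v0d1 −1.53, Atp6v0e −1.18, Atp6v1c1 −1.32, Atp6v1e1 −1.17, Atp6v1f −0.95, Atp6v1h −1.44 and Ctsb −1.504; for double positive against endothelial: Atp6v0a1 −0.45, Atp6v1a −0.16, Ctsb −0.082 and Lamp1 −0.31; for double positive against erythroid: Atp6ap1 0.81 and Atp6v0a2 0.19. For erythroid against endothelial, Atp6v0d1, Atp6v1h and Ctsb, none of which passed, were −0.18, −0.089 and −0.16 with DESeq2, −0.17, −0.085 and −0.15 with RLE factors, −0.13, −0.045 and −0.11 with globin and Rn45s removed, and −0.14, −0.057 and −0.12 with only the populations compared. With limma-voom Atp6v0e2 was 0.76 for double positive against endothelial. Leaving out 1 library, differences that did not pass ran across 0: for erythroid against endothelial, Atp6v0a1 −1.13 to 0.011, Atp6v0d1 −0.13 to 0.196, Atp6v1d −0.27 to 0.046, Atp6v1h −0.17 to 0.41, Ctsb −0.22 to 0.38 and Ctsd −0.28 to 0.065; for double positive against endothelial, Atp6v0a1 −0.14 to 0.75; for double positive against erythroid, Atp6ap1 −0.30 to 0.102. Without the 3 members carried by 1 population, chosen after seeing the data, erythroid exceeded endothelial libraries for 2 members, and double positive fell short of endothelial libraries for 2 and of erythroid libraries for 1. No paired analysis was possible because replicate numbers 1 to 8 are not shared between populations. With 2 double positive libraries the spread there rests on 1 difference, and a member that did not pass may still differ.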
